A study of Mus musculus with 8 samples.

Results

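The guanylate binding proteins and the immunity-related GTPases were examined in mouse peritoneal macrophages that received recombinant HRG (histidine-rich glycoprotein, a protein of plasma) or were left untreated. The set was given by name as 8 genes, Gbp2, Gbp3, Gbp5, Gbp7, Irgm1, Irgm2, Igtp and Iigp1, and a gene was measured if a row of the array carried its symbol alone. That held for 5 of the 8 (Gbp3, Gbp5, Gbp7, Irgm1 and Iigp1), out of 19938 genes measured in all, and each had 1 such row. Gbp2 was found only on a row annotated to both Gbp2 and Gbp2b, and Irgm2 and Igtp only on a row annotated to both of them, so these rows are given as rows and not as the level of 1 gene. All 8 arrays came from 1 pool of peritoneal lavage cells of 10 wild-type C57/Bl6 mice, which rested in culture overnight. The groups, of 2 arrays each, were cells with HRG at 1 µg/ml for 24 h, basal cells left untreated for 24 h, cells with HRG at 1 µg/ml for 6 h and basal cells left untreated for 6 h. The labels give neither the age nor the sex of the mice, no added interferon and no infection.

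Both families are GTPases whose genes are switched on by interferon, above all by interferon-gamma, in macrophages. Guanylate binding proteins assemble on the vacuoles and surfaces of intracellular bacteria and parasites, and open the way for the inflammasome. Immunity-related GTPases fall into effectors, such as Iigp1, which load onto the vacuole of Toxoplasma and disrupt it, and regulators, Irgm1, Irgm2 and Igtp, which sit on the cell's own membranes and keep the effectors inactive there. The interferon signal reaches such promoters through the interferon-stimulated response element (ISRE), bound by interferon regulatory factors, and through the gamma-activated site (GAS), the element of interferon-gamma signalling. Gbp2, Gbp3, Gbp5 and Gbp7 lie on chromosome 3, and Irgm1, Irgm2 and Igtp on chromosome 11.

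The promoters of 4 of the measured genes are shown because both motifs could be searched in them beside the expression values. They are RefSeq windows of the GRCm38.p6 build, 250 bases before to 50 bases after the annotated start, written 5′ to 3′ on the gene's strand, with the motif matches in capitals.
Gbp3, chr3:142559794-142560093, plus strand: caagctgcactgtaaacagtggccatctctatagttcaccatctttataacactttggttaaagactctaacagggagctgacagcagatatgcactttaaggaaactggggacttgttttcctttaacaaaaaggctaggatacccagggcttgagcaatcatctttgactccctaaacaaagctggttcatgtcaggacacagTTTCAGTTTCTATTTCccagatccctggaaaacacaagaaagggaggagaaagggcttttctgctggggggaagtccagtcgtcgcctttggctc
Gbp5, chr3:142496684-142496983, plus strand: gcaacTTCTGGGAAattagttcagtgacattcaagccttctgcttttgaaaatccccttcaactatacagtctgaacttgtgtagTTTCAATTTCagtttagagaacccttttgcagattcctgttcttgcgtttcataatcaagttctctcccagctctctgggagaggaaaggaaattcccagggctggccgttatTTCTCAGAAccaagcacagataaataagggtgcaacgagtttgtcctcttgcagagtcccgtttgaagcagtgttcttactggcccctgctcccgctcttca
Gbp7, chr3:142530086-142530385, plus strand: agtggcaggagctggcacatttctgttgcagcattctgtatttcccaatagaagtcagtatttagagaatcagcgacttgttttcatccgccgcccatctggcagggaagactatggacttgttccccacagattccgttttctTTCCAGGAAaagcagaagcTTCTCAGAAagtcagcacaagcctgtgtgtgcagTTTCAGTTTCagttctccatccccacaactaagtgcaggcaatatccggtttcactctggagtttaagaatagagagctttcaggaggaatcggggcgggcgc
Irgm1, chr11:48871371-48871670, minus strand: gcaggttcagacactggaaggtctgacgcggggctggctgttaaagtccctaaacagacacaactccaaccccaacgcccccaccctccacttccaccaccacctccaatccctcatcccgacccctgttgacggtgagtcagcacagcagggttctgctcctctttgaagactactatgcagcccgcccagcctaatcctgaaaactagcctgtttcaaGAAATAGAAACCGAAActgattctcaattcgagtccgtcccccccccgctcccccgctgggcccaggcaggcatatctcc
The ISRE core was searched as GAAA, any 2 bases and again GAAA on both strands and the GAS as TTCNNNGAA, which reads the same on both. Gbp3 held 2 overlapping ISRE matches, whose first bases lay at -45 and -39 from the start. Gbp5 held an ISRE match at -165 and GAS matches at -245 and -52. Gbp7 held an ISRE match at -53 and GAS matches at -106 and -87, and Irgm1 held 2 overlapping ISRE matches at -30 and -24. A window was given for 7 of the 8 genes: all 7 held the ISRE letters, against 3.44% of 32851 promoter windows of mouse genes, and 4 held the GAS letters (57.1%, against 8.30%). Such a match is a description of the sequence and not evidence of binding, and these genes are related by descent.

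Values are log2 RMA levels, in which a difference of 1 is a doubling, and a row's level is not comparable with another row's. The arrays had medians of 7.18 to 7.29 and the replicate arrays correlated at 0.996 to 0.998 over all rows. The macrophage markers Adgre1, Cd68, Csf1r and Lyz2 exceeded 13 on every array, above each array's 90th percentile of 10.70 to 10.78. They are not typical of their list, since the mean over 13 measured macrophage markers was 10.99 to 11.33 per array. Lists of B cell, T and NK cell, mast cell and granulocyte, and dendritic cell markers had means of 6.42 to 8.75 per array. They are given beside the results they moved with. As levels of different rows are not comparable, these means give no share of any cell type. In RNA from a mixed culture, fewer cells of a type and less RNA per cell cannot be told apart. All p-values measure only the spread between arrays of this 1 pool. That spread may be technical, and so few arrays limit how precise a value is.

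Across the study, the GTPase transcripts were lowest in basal cells at 24 h and, except for Iigp1, highest in the 6 h groups, with or without HRG. Gbp3 was 9.14 ± 0.10 with HRG at 24 h, 8.65 ± 0.27 in basal cells at 24 h, 10.15 ± 0.03 with HRG at 6 h and 10.18 ± 0.12 in basal cells at 6 h (SD, n = 2 each). Every measured member and both shared rows had their lowest mean in the basal 24 h group, and for each of them the lowest single array was replicate 2 of that group. Iigp1 was 7.92 ± 0.25 with HRG at 24 h, 6.90 ± 0.69 in basal cells at 24 h, 8.18 ± 0.35 with HRG at 6 h and 7.70 ± 0.26 in basal cells at 6 h, so its HRG cells at 24 h were within the range of the 6 h groups.

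**Figure D1:**
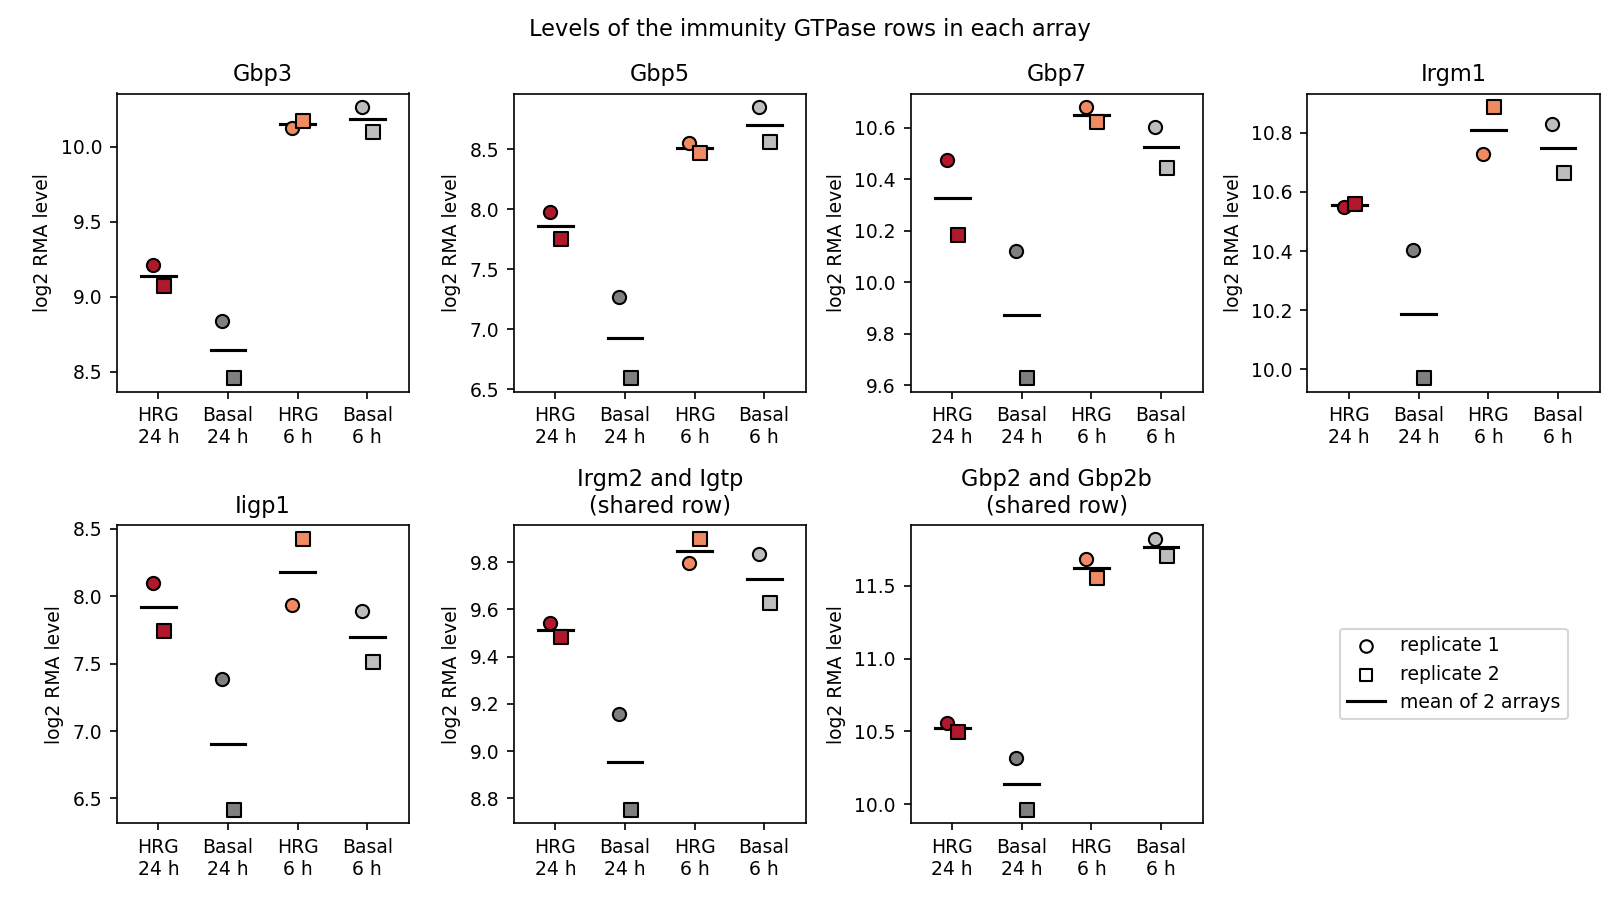
Log2 RMA level of each GTPase row (vertical axes, own scale per panel) in the 8 arrays, grouped by treatment and time; circles are replicate 1, squares replicate 2 and bars the mean of 2 arrays. In every panel the basal 24 h arrays hold the lowest mean, and replicate 2 lies below replicate 1 there.

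HRG against basal at 24 h asks whether cells kept with HRG for a day hold different amounts of these transcripts. Gbp5, which promotes assembly of the NLRP3 inflammasome, rose, and the other 4 measured members were also higher in the HRG cells without passing the test. Past an adjusted p of 0.05 were 1 of 5 members, against 2.43% of all genes that rose and 1.05% that fell. Both HRG arrays lay above both basal arrays for 5 of 5 members, against 19.1% of all genes. The median difference was 0.49 for the members and -0.02 for all genes.

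Gbp5 read 7.98 and 7.75 with HRG at 24 h, against 7.27 and 6.59 in basal cells at 24 h. The groups did not overlap, and the 2 basal arrays stood further apart than the 2 HRG arrays. The difference was 0.93 ± 0.18 (SE), a 1.91-fold higher level (95% interval 0.54 to 1.33 on the log2 scale, adjusted p = 0.0131). Gbp3 read 9.21 and 9.07 with HRG, against 8.83 and 8.46 in basal cells, without overlap. Its difference of 0.49 ± 0.13 missed the threshold (adjusted p = 0.0571). Gbp7, which has been linked in mouse macrophages to delivery of autophagy and oxidase components to bacteria, read 10.47 and 10.18 with HRG, against 10.12 and 9.63 in basal cells. The nearest arrays of the 2 groups were 10.18 and 10.12, close together, and the difference was 0.45 ± 0.15 (adjusted p = 0.175). The row of Gbp2 and Gbp2b read 10.56 and 10.49 with HRG, against 10.32 and 9.96 in basal cells, and differed by 0.38 ± 0.12 (adjusted p = 0.20 in a fit over all 28853 rows).

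Among the immunity-related GTPases, Iigp1 read 8.10 and 7.74 with HRG at 24 h, against 7.39 and 6.42 in basal cells at 24 h. No array crossed over, but the basal arrays were nearly a log2 unit apart. The difference of this effector was 1.02 ± 0.26, or 2.03-fold, numerically as large as that of Gbp5, with a wider interval (0.45 to 1.59) and an adjusted p of 0.0601. Irgm1, the regulator, read 10.55 and 10.56 with HRG, against 10.40 and 9.97 in basal cells. Its HRG arrays were nearly equal, and the difference was 0.37 ± 0.13 (adjusted p = 0.228). The row of the regulators Irgm2 and Igtp read 9.54 and 9.48 with HRG, against 9.16 and 8.75 in basal cells, a difference of 0.56 ± 0.13 (adjusted p = 0.0691).

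**Figure D2:**
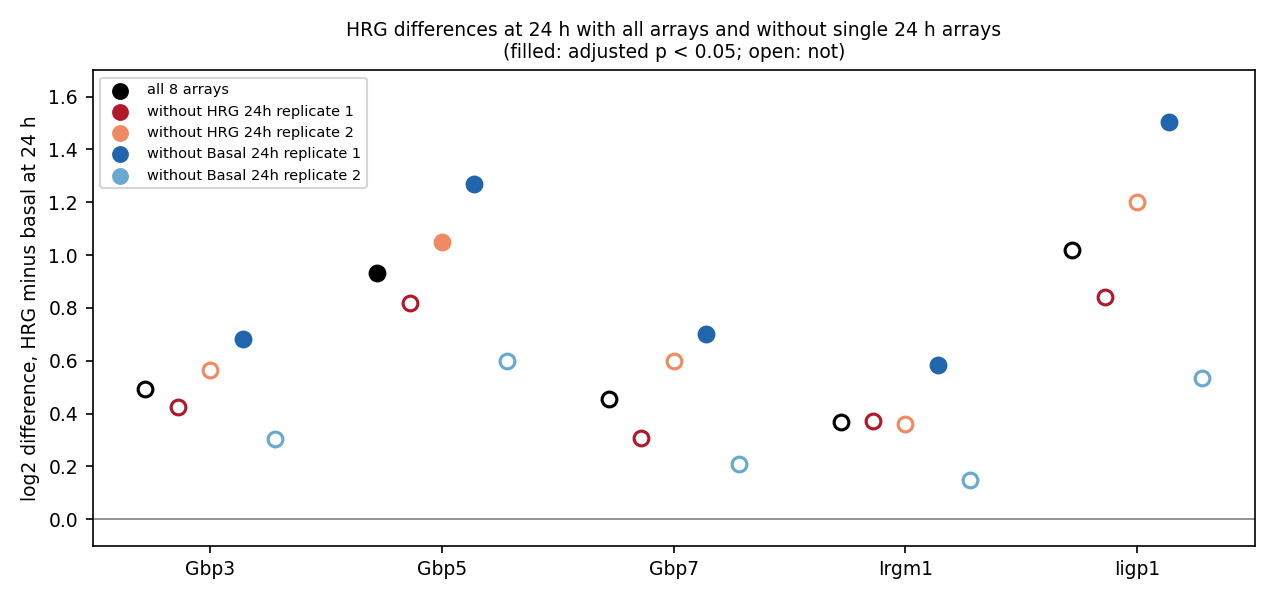
Log2 difference of each measured GTPase gene, HRG minus basal at 24 h (vertical axis), with all 8 arrays and without each of the 4 arrays of that time; filled symbols passed an adjusted p of 0.05. Gbp5 keeps its call in 2 of the 4 omissions, all 5 genes pass without basal 24 h replicate 1 and none passes without basal 24 h replicate 2.

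The size of these differences depended on which 24 h arrays entered. With 2 arrays in a group, leaving out either one moves a difference equally far, in opposite directions. The values therefore cannot say which of the 2 basal arrays is unusual. In basal cells at 24 h, replicate 2 was lower than replicate 1 by 0.38 to 0.97 for the 5 members, with a median of 0.49. Over all genes the median of the signed gap, replicate 1 minus replicate 2, was 0.0067. Gaps of opposite sign cancel in it, so it does not measure how large gaps usually are. Replicate 2 was lower by at least the smallest member gap in 2.40% of genes. Equally large gaps in the other direction are not in that share. Without basal 24 h replicate 2 the difference fell to 0.60 for Gbp5 (adjusted p = 0.0906), 0.31 for Gbp3, 0.21 for Gbp7, 0.15 for Irgm1 and 0.53 for Iigp1, and 0 of 5 passed. Without basal 24 h replicate 1 all 5 passed, with 1.27 for Gbp5. Without HRG 24 h replicate 1 the difference of Gbp5 was 0.82 and was no longer called (adjusted p = 0.187). The sign was positive for all 5 members in each of these fits. That follows from the groups not overlapping and adds nothing to it.

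Transcripts of B cells moved the same way at 24 h. The mean log2 level over 9 B cell markers was 8.65 and 8.40 with HRG at 24 h, against 8.12 and 7.74 in basal cells at 24 h. Against 2.43% of all genes, 5 of the 9 rose, Cd79a by 0.98 ± 0.16 and Ms4a1 by 0.80 ± 0.15 among them. That count of 5 was 0 without HRG 24 h replicate 1, 3 without HRG 24 h replicate 2, 1 without basal 24 h replicate 2 and 8 without basal 24 h replicate 1. All 9 were lower in basal 24 h replicate 2 than in replicate 1, as the GTPases were. At 6 h the B cell mean was 8.37 and 8.35 with HRG, against 8.75 and 8.72 in basal cells. Both HRG arrays were lower for all 9, against 18.3% of all genes. Of 11 mast cell and granulocyte markers Cpa3 and Mcpt4 rose with HRG at 24 h, by 0.97 and 0.66, calls lost in 2 of the 8 omissions of an array, and 0 fell. Of these 11 differences 7 were positive and 4 negative, with S100a8 lowest at -0.70. Of 7 dendritic cell markers the integrin Itgax alone rose, by 1.00, with 4 of the 7 differences positive and 3 negative. The part of other cell types in the GTPase values was not tested.

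HRG against basal at 6 h showed no called member in either direction, with 0 of 5 against 0.431% of all genes that rose and 0.818% that fell. Both HRG arrays lay above both basal arrays for Gbp7 and Iigp1 (2 of 5, against 20.0% of all genes) and below them for Gbp5 (1 of 5, against 18.3%). Gbp5 read 8.55 and 8.47 with HRG at 6 h, against 8.85 and 8.56 in basal cells at 6 h. Its difference was -0.19 ± 0.18, opposite in sign to that at 24 h (adjusted p = 0.796). Iigp1 read 7.94 and 8.43 with HRG, against 7.89 and 7.52 in basal cells, and the difference was 0.48 ± 0.26 (adjusted p = 0.562). Its 95% interval ran from -0.09 to 1.06 and includes both no change and a doubling. Gbp3 read 10.13 and 10.17 with HRG, against 10.26 and 10.10 in basal cells, and Irgm1 read 10.73 and 10.89, against 10.83 and 10.66. In both genes the HRG and basal arrays overlapped. Gbp7 read 10.68 and 10.62 with HRG, against 10.61 and 10.44 in basal cells. The differences of these 3 members were -0.03 for Gbp3, 0.13 for Gbp7 and 0.06 for Irgm1, and their intervals lay between -0.31 and 0.46. The row of Gbp2 and Gbp2b read 11.68 and 11.55 with HRG, against 11.82 and 11.70 in basal cells (-0.14, adjusted p = 0.808), and the row of Irgm2 and Igtp read 9.80 and 9.90, against 9.83 and 9.63 (0.12, adjusted p = 0.875). An unadjusted p below 0.05 was reached by none of the 5 and by 2194 of all genes.

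**Figure D3:**
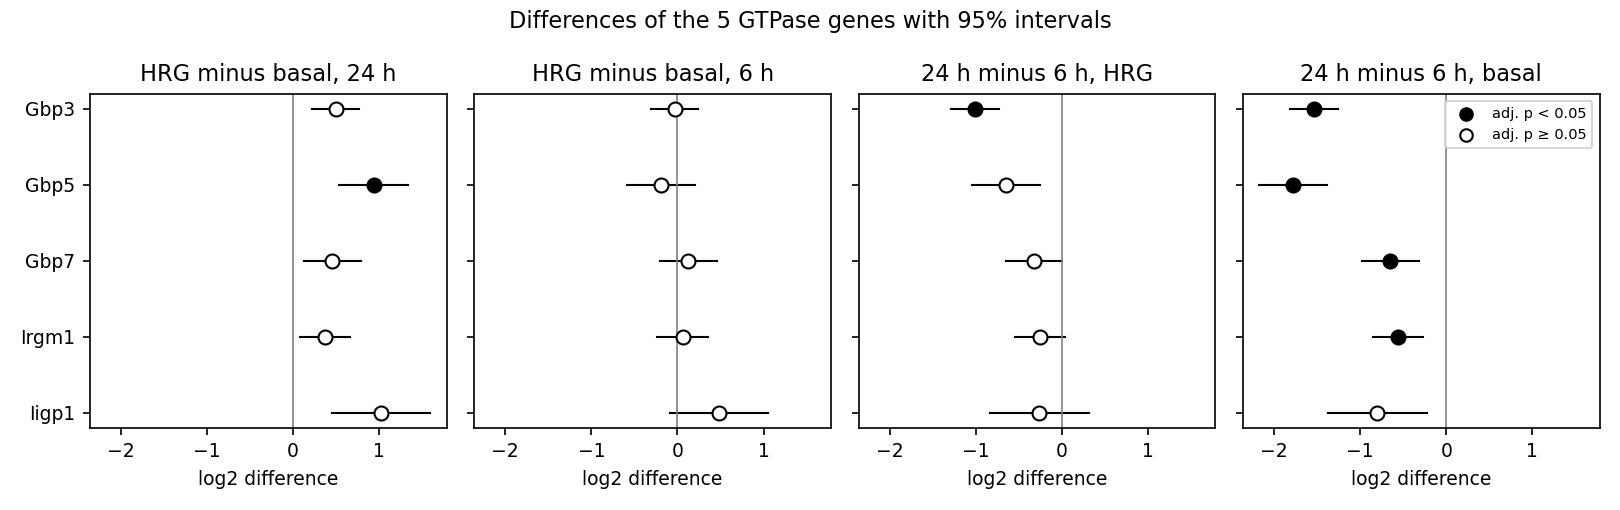
Log2 differences of the 5 measured GTPase genes with 95% intervals (horizontal axis) in 4 comparisons; filled circles passed an adjusted p of 0.05. Gbp5 alone passed for HRG against basal at 24 h, none at 6 h, Gbp3 alone was lower at 24 h than at 6 h in HRG cells and 4 genes were in basal cells.

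The difference between both HRG effects, 24 h minus 6 h, was positive for all 5 members and passed for none of them, against 1.02% of all genes called higher and 0.451% called lower. It was 1.13 ± 0.26 for Gbp5 (adjusted p = 0.0556), 0.53 ± 0.18 for Gbp3 (adjusted p = 0.238) and 0.54 ± 0.37 for Iigp1 (adjusted p = 0.687). For Gbp7 and Irgm1 it was 0.33 and 0.31. A different response to HRG at the 2 times was therefore not shown for any measured member.

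Time in culture was read separately with and without HRG. In HRG cells at 24 h against 6 h, 1 of 5 members fell, against 2.87% of all genes that fell and 4.41% that rose. Gbp3 read 9.21 and 9.07 at 24 h, against 10.13 and 10.17 at 6 h, 2.01-fold lower (-1.01 ± 0.13, adjusted p = 0.000484). Gbp5 read 7.98 and 7.75 at 24 h, against 8.55 and 8.47 at 6 h, and its difference was -0.65 ± 0.18 (adjusted p = 0.0534). Gbp7, Irgm1 and Iigp1 differed by -0.32, -0.25 and -0.26 and did not pass. The row of Gbp2 and Gbp2b read 10.56 and 10.49 at 24 h, against 11.68 and 11.55 at 6 h, and fell by 1.09 (adjusted p = 0.000992). The row of Irgm2 and Igtp read 9.54 and 9.48 at 24 h, against 9.80 and 9.90 at 6 h, and differed by -0.33 without passing (adjusted p = 0.223). For 4 of the 5 members, all but Iigp1, both 24 h arrays lay below both 6 h arrays, against 26.6% of all genes.

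In basal cells 4 of 5 members fell by 24 h, against 5.48% of all genes that fell and 3.80% that rose. Gbp5 read 7.27 and 6.59 in basal cells at 24 h, against 8.85 and 8.56 at 6 h, a difference of -1.78 ± 0.18 and a 3.42-fold lower level (adjusted p = 0.00011). Gbp3 read 8.83 and 8.46 at 24 h, against 10.26 and 10.10 at 6 h, 2.90-fold lower (-1.54 ± 0.13, adjusted p = 2.23e-05). In both genes all 24 h arrays lay far below the 6 h arrays, and the call held whichever single array was left out. The row of Gbp2 and Gbp2b read 10.32 and 9.96 at 24 h, against 11.82 and 11.70 at 6 h, and fell by 1.62 (adjusted p = 0.000103). For all 5 members both 24 h arrays lay below both 6 h arrays, against 21.7% of all genes.

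Gbp7 and Irgm1 also fell in basal cells. Gbp7 read 10.12 and 9.63 at 24 h, against 10.61 and 10.44 at 6 h, and fell by 0.65 (adjusted p = 0.0176). Irgm1 read 10.40 and 9.97 at 24 h, against 10.83 and 10.66 at 6 h, and fell by 0.56 (adjusted p = 0.0207). Both calls were lost without basal 24 h replicate 2, with differences of -0.40 and -0.34, and without basal 6 h replicate 1. Iigp1 read 7.39 and 6.42 at 24 h, against 7.89 and 7.52 at 6 h, and its difference of -0.80 ± 0.26 missed the threshold (adjusted p = 0.0872). The row of Irgm2 and Igtp read 9.16 and 8.75 at 24 h, against 9.83 and 9.63 at 6 h, and fell by 0.78 (adjusted p = 0.00747), a call lost without basal 6 h replicate 1 (-0.67, adjusted p = 0.0515). The basal 24 h arrays enter both the HRG effect at 24 h and the basal time course, so these comparisons are not separate observations.

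The rest of both families had 9 genes with a row of their own. At 24 h Gbp9 and Gm12250 (also Irgb10, an effector that breaks bacterial membranes) rose with HRG, and 0 of the 9 fell. Of all genes 2.43% rose and 1.05% fell. Gbp9 read 9.31 and 9.04 with HRG at 24 h, against 8.59 and 7.83 in basal cells at 24 h (0.96 ± 0.20, adjusted p = 0.0174). Gm12250 read 9.99 and 9.87 with HRG, against 9.35 and 8.79 in basal cells (0.86 ± 0.16, adjusted p = 0.012). In both genes the groups were clear of each other, and in both the call was lost without basal 24 h replicate 2, with differences of 0.58 each, and without either HRG 24 h array. Gm4951, Gbp4, Gbp8, Gbp11 and Gbp2b differed by 0.47, 0.35, 0.34, 0.22 and 0.10 and did not pass. Irgc1 and Irgq, relatives not known as interferon-induced in macrophages, differed by -0.06 and -0.14.

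At 6 h the guanylate binding proteins of chromosome 5, Gbp4, Gbp8, Gbp9 and Gbp11, differed by -0.34, -0.31, -0.20 and -0.48, HRG minus basal, and none passed. Gbp11 read 8.33 and 8.34 with HRG at 6 h, against 8.99 and 8.64 in basal cells at 6 h, without overlap (adjusted p = 0.208). A row shared by Gbp11, Gbp10, Gbp9, Gbp6, Gbp8 and Gbp4 differed by -0.42 ± 0.16 (adjusted p = 0.412). Gm12250 went the other way, with 10.12 and 10.38 with HRG, against 9.86 and 9.60 in basal cells (0.52 ± 0.16, adjusted p = 0.197). These genes are close paralogs, and probes may respond to more than 1 of them.

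Over time in HRG cells Gbp4 alone passed among the 9, with a difference of -0.74 ± 0.17 (adjusted p = 0.0221), a call lost when any 1 of the 4 HRG arrays was left out, while Gbp9 differed by -0.13 and Gbp8 by -0.07. In basal cells 5.48% of all genes fell and 3.80% rose. Of the 9, 6 fell and 0 rose there: Gbp4 by 1.43, Gbp9 by 1.29, Gbp11 by 1.06, Gbp8 by 0.72, Gm12250 by 0.66 and Gbp2b by 0.36. Without basal 24 h replicate 2 this count was 3, and the call of Gbp2b was lost in each of the 8 omissions of an array. A pair of rows shared by Tgtp1 and Tgtp2, effector GTPases, fell in HRG cells by 0.88 and 0.91 and in basal cells by 1.63 and 1.61.

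The signals that induce these GTPases were read from lists of ligands, receptors and kinases, factors and inhibitors. Of 10 measured ligand genes 1 fell with HRG at 6 h, against 0.818% of all genes, and 1 rose at 24 h, against 2.43%. Ifng, the main inducer, read between 6.72 and 7.02 on all 8 arrays, below each array's median, and did not pass in any comparison. Il12b, whose product drives interferon-gamma release by lymphocytes, read 8.45 and 8.02 with HRG at 6 h, against 9.55 and 9.32 in basal cells at 6 h, and fell by 1.20 (adjusted p = 0.00352). Il18, a partner of interleukin-12 in that release, read 9.02 and 9.27 with HRG at 24 h, against 8.53 and 8.35 in basal cells at 24 h, and rose by 0.71 (adjusted p = 0.0156).

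With HRG 2.43% of all genes rose at 24 h and 0.818% fell at 6 h. Among 9 receptor and kinase genes 1 rose with HRG at 24 h, Ifngr1, the ligand-binding chain of the interferon-gamma receptor. It read 11.47 and 11.39 with HRG, against 11.04 and 11.00 in basal cells (0.41 ± 0.09, adjusted p = 0.0276). Jak2, a kinase of that receptor, fell over time in both cultures, by 0.55 in HRG cells, a call lost in 2 of the 8 omissions of an array, and by 0.70 in basal cells. At 6 h Il18r1, a chain of the interleukin-18 receptor, was the single called gene of this list, at -0.48 (adjusted p = 0.0463), a call lost in 6 of the 8 omissions.

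Of 12 measured factors 2, Irf1 and Irf7, rose with HRG at 24 h, against 2.43% of all genes. None was called at 6 h, where 0.431% of all genes rose and 0.818% fell. Irf1, which binds the ISRE and is itself induced by interferon-gamma, read 10.49 and 10.49 with HRG at 24 h, against 10.19 and 9.97 in basal cells at 24 h (0.41 ± 0.10, adjusted p = 0.0444). At 6 h it read 10.17 and 10.12 with HRG, against 10.46 and 10.45 in basal cells, a difference of -0.31 that did not pass, and the HRG effects at the 2 times differed by 0.72 ± 0.14 (adjusted p = 0.0298), a call lost in 6 of the 8 omissions. Irf7, amplifier of type I interferon, read 12.95 and 12.82 with HRG at 24 h, against 12.54 and 12.16 in basal cells (0.54 ± 0.12, adjusted p = 0.0347). Of all genes 5.48% fell over time in basal cells. Over time in basal cells Irf1, Irf7, Irf9 and Ciita fell, by 0.38, 0.70, 0.37 and 0.56, and the call was lost in 7 of the 8 omissions of an array for Irf1, 3 for Irf9, 2 for Ciita and 0 for Irf7. Without basal 24 h replicate 2 the difference of Ciita was -0.35. Of 9 inhibitors of the pathway, Ptpn6 and Cish rose with HRG at 24 h by 0.37 and 0.42, and Socs3 and Usp18 fell over time in basal cells by 0.35 and 0.91, a call that Socs3 lost in each of the 8 omissions and Usp18 in none. The 24 h calls of Il18, Irf1 and Irf7 were lost without basal 24 h replicate 2, where the differences were 0.62, 0.30 and 0.34, and those of Ifngr1, Ptpn6 and Cish in 6 of the 8 omissions of an array, with differences never below 0.34.

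Other genes induced by interferon-gamma were read from a list of 32 measured targets. With HRG at 24 h 7 rose and 0 fell, against 2.43% and 1.05% of all genes, and the list's median difference was 0.16. Fcgr1, the high-affinity receptor for IgG, read 11.30 and 11.25 with HRG at 24 h, against 10.44 and 9.85 in basal cells at 24 h (1.13 ± 0.16, adjusted p = 0.00189). H2-Aa and Cd74, which present peptides with class II molecules, rose by 1.10 and 1.00. These 3 genes stayed called whichever single array was left out, while H2-Ab1, H2-Eb1, Psme1 and Icam1, with 0.59, 0.70, 0.49 and 0.45, did not. Without basal 24 h replicate 2 the difference of H2-Eb1 was 0.42. The count of 7 was 3 without that array, 3 without HRG 24 h replicate 1 and 4 without HRG 24 h replicate 2. B cells express the class II genes as well, and the B cell markers given above moved with them. Cxcl10, a chemokine of the same list, differed by 0.20 and did not pass (adjusted p = 0.656).

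Genes induced by type I interferon gave 4 of 25 that rose and 0 that fell with HRG at 24 h, against 2.43% and 1.05% of all genes. They were Ifit2, Mx1, Rtp4 and Cmpk2, by 0.74, 0.84, 0.65 and 0.75. The list's median was 0.40, and both HRG arrays lay above both basal arrays for 23 of the 25, against 19.1% of all genes. Of the 25, 24 were lower in basal 24 h replicate 2 than in replicate 1. Without that array 0 of the 25 passed, without HRG 24 h replicate 1 it was 0, without HRG 24 h replicate 2 it was 2 and without basal 24 h replicate 1 it was 16. At 6 h 0 of 25 passed, with a median of 0.15. Over time 12 of 25 fell in HRG cells, Rsad2 by 1.95 and Ifit3 by 1.69, and 21 of 25 in basal cells, Rsad2 by 2.35 and Ifit3 by 2.09. Of all genes 2.87% fell in HRG cells, and in basal cells 5.48% fell and 3.80% rose. The interferon-gamma targets were mostly lower at 24 h than at 6 h in basal cells, with 26 of 32 differences negative and 6 positive. There 14 fell and 1 rose past the threshold, Cxcl10 by 1.66 downward and Nos2 by 0.77 upward. In HRG cells 5 fell and 2 rose, against 2.87% and 4.41% of all genes, with 19 differences negative and 13 positive.

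**Figure D4:**
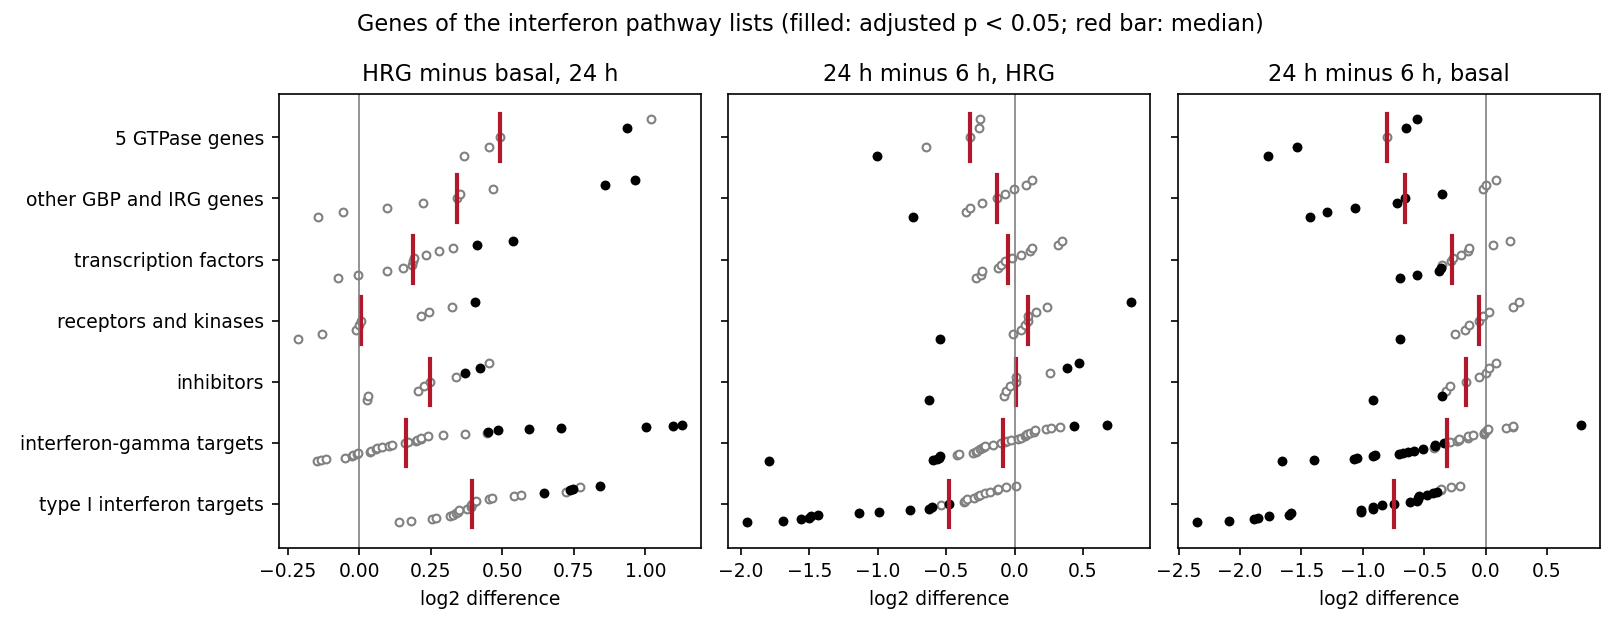
Log2 differences (horizontal axis) of the genes in 7 lists of the interferon pathway, 1 circle per gene, for HRG minus basal at 24 h and for 24 h minus 6 h in HRG and in basal cells; filled circles passed an adjusted p of 0.05 and red bars are medians. All 25 type I interferon targets lie above 0 for HRG at 24 h and below 0 for basal cells over time.

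With HRG at 24 h 1.05% of all genes fell and 2.43% rose. Of 20 genes of the autophagy and ubiquitin machinery that guide GTPases to vacuoles, 2 fell at that time and 0 rose. They were Gabarapl1 and Sqstm1, by 0.59 and 0.43. Both calls were lost without either HRG 24 h array and without basal 24 h replicate 2, where the differences were -0.40 and -0.36. Gabarapl1, of the family that keeps immunity-related GTPases off the cell's own membranes, read 11.31 and 11.21 with HRG at 24 h, against 11.66 and 12.04 in basal cells at 24 h. Of 12 inflammasome genes 1 rose with HRG at 24 h and 0 fell, beside the same shares of all genes. This was Pycard, the adaptor ASC, with 11.17 and 10.94, against 10.28 and 9.73 in basal cells (1.05 ± 0.15, adjusted p = 0.00247). Its call was lost without HRG 24 h replicate 1, where the difference was 0.78 (adjusted p = 0.0553). Casp4, the mouse caspase-11 that senses lipopolysaccharide exposed by guanylate binding proteins, read 10.23 and 10.03 with HRG at 24 h, against 9.90 and 9.74 in basal cells, and did not pass at either time (0.31 at 24 h and -0.53 at 6 h).

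The 5 measured GTPases followed each other over the 8 arrays, with pairwise Pearson correlations from 0.690 (Gbp3 with Iigp1) to 0.965 (Gbp3 with Gbp5) and a median of 0.905 over 10 pairs. These values describe arrays that share a pool and group structure. Among 9964 genes with at least the median spread, the mean profile of the 5 was most like that of Ifi213 (r = 0.998), Oasl2 (0.988), Ms4a4c (0.987), Irf7 (0.987), Phf11a (0.986), Trim30d (0.986), Usp18 (0.985) and Mctp1 (0.984). Ifi213 read 9.16 and 8.63 with HRG at 24 h, against 8.15 and 7.10 in basal cells at 24 h, and 9.59 and 9.87 with HRG at 6 h, against 9.86 and 9.40 in basal cells at 6 h. Like the GTPases, it was lowest in basal 24 h replicate 2, a likeness that follows from how it was chosen.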

How the data were processed

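Affymetrix arrays measured total RNA of 8 samples of mouse peritoneal macrophages, 2 in each of 4 groups taken from the sample titles. The deposited values are log2 levels, which the authors made with Affymetrix Expression Console by RMA (background correction, quantile normalization, summary of probes), and limma is also named, per the submitters' processing notes. Of versions and genome build nothing is given in the sources used here. Of 28853 rows, 21789 carry 1 symbol in the platform annotation; where a gene had several rows (999 genes), the brightest on average was used. RefSeq (GRCm38.p6) gave chromosomes and promoter windows.

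All 8 arrays entered 1 linear model of the 4 groups in limma 3.58.1 under R 4.3.3 (lmFit, contrasts.fit, eBayes; 4 residual and 7.81 prior degrees of freedom). Tests were two-sided, with Benjamini-Hochberg adjustment over 19938 genes and a threshold of 0.05. Shared rows were tested in a fit over all 28853 rows. The fit was checked on simulated data. Errors are standard errors of the moderated fit, or SDs of 2 arrays for levels. The 8 genes and the lists were chosen with earlier results of these data known, so their counts and medians are descriptions. Named were the members, every other family gene, genes of the pathway lists, called genes of other lists, and the 8 genes most alike. Alternatives were a replicate block, a trended and robust eBayes, quantile normalization once more, centring on the array median, the dimmest 30% of genes left out, rows averaged, every row tested, the 4 arrays compared, a minimum fold of 1.5 and each array left out.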

Additional observations from a re-analysis of the deposited data

Results flagged for a closer look

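No group held enough arrays for a test of single outlying arrays. The test of the difference between the HRG effects at 24 h and at 6 h marked 6 genes of the pathway lists, all with a positive difference (24 h minus 6 h). It was 1.30 ± 0.23 for H2-Aa (adjusted p = 0.0208), where HRG minus basal was 1.10 at 24 h and -0.20 at 6 h. It was 0.99 for Cd74, with 1.00 at 24 h and 0.01 at 6 h. Il12b gave 0.96, with -0.23 at 24 h, which did not pass (adjusted p = 0.626), and -1.20 at 6 h. Its positive value therefore came from a fall at 6 h and not from a rise at 24 h. Casp4 gave 0.84, with 0.31 at 24 h and -0.53 at 6 h, neither of which passed alone. Irf1 gave 0.72, with 0.41 at 24 h and -0.31 at 6 h. Icam1 gave 0.58, with 0.45 at 24 h and -0.13 at 6 h, and lost its call in each of the 8 omissions of an array. Of the other 5, the call was lost in 2 omissions for Cd74, 3 for H2-Aa and 6 each for Il12b, Irf1 and Casp4. No GTPase gene was among them. Of 9 B cell markers 7 also passed this test with a positive difference, against 1.02% of all genes. The list median was 0.87, with 1.24 for Spib and 1.20 for Cd79a, and the part of B cells in the class II values was not tested. That count of 7 was 0 to 9 without single arrays.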

How the results depend on the processing

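For HRG against basal at 24 h, 1 GTPase gene was called higher. The count was 3 with the replicate block, 3 with arrays centred on their medians, 3 with the 4 arrays compared, 2 with trend and robust, 2 with the dimmest 30% of genes left out and 0 with a minimum fold of 1.5, and it ranged from 0 to 5 when an array was left out. With the replicate block Gbp3, Gbp5 and Iigp1 passed. For the difference of the HRG effects the count of 0 became 1 (Gbp5) with the replicate block, with trend and robust, with centring and with the dimmest genes left out, and ranged from 0 to 1 without single arrays. In basal cells over time, 4 genes were called lower, 2 with a minimum fold of 1.5 and 2 to 5 without single arrays. In HRG cells over time, 1 was called lower, 0 with a minimum fold of 1.5, 2 with the replicate block, trend and robust, renewed quantile normalization, centring, the dimmest genes left out or the 4 arrays compared, and 1 to 2 without single arrays. For basal cells over time, Irgm1 lost its call in 4 of the 18 alternatives, Gbp7 in 3 and Gbp3 and Gbp5 in 0. Iigp1, not called as reported, was called there in 2. The cause of these changes was not tested. Fewer genes or arrays enter some of the fits, and the minimum fold asks more of each gene. At 6 h the small differences of Gbp3 (-0.12 to 0.048 without single arrays) and Irgm1 (-0.023 to 0.14) reversed, the first without basal 6 h replicate 1 and the other without HRG 6 h replicate 2 or basal 6 h replicate 2. No other difference of a member changed sign in 18 alternatives. Where the compared groups do not overlap, leaving out a single array cannot change the sign. The deviations of same-numbered arrays correlated at 0.24 to 0.41 among the HRG 24 h, HRG 6 h and basal 6 h groups and at -0.33 to -0.20 between each of these and basal 24 h, and nothing in the labels says what the numbers mark, so the numbers were not taken as pairs. With the numbers of basal 24 h crossed, an alternative chosen after seeing the data, 2 GTPase genes were called higher at 24 h, and of all genes 715 higher and 368 lower, against 485 and 209 without a block. Over the alternatives other than the minimum fold, HRG called 10 to 191 genes higher and 11 to 319 lower at 6 h (86 and 163 as reported), 110 to 715 higher and 72 to 368 lower at 24 h, and the difference of the effects 28 to 424 higher and 28 to 180 lower (204 and 90). Over time the counts were 373 to 1163 higher and 600 to 1581 lower in basal cells (758 and 1093), and 390 to 1265 higher and 139 to 1072 lower in HRG cells (880 and 572). A fit on only the 4 arrays compared gives no difference of the effects.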

Other observations

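Of 13 measured macrophage markers 3 rose with HRG at 24 h and 0 fell, against 2.43% and 1.05% of all genes. They were Fcgr1, given above, Timd4 and Mertk. Adgre1, Cd68, Csf1r and Lyz2 differed by 0.17, 0.16, -0.01 and 0.04 and did not pass. Timd4, a receptor for apoptotic cells on resident peritoneal macrophages, read 8.78 and 8.51 with HRG at 24 h, against 7.95 and 7.85 in basal cells at 24 h (0.74 ± 0.11, adjusted p = 0.00313). Mertk, another such receptor, rose at both times, by 0.51 ± 0.10 at 24 h (adjusted p = 0.0157) and by 0.81 ± 0.10 at 6 h (adjusted p = 0.00449). These calls were lost in 1 of the 8 omissions for Timd4, and for Mertk in 3 at 24 h and 1 at 6 h. At 6 h 0.818% of all genes fell with HRG and 0.431% rose. Of 15 T and NK cell markers 2 fell with HRG at 6 h, Cd3g by 1.11 and Cd28 by 0.60. Of 7 dendritic cell markers 1 fell, Ccr7 by 0.54. None rose, and 5 of the 15 and 3 of the 7 differences were positive. The calls of Cd3g and Ccr7 were lost in 6 and that of Cd28 in 5 of the 8 omissions of an array.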
